A study of Mus musculus with 12 samples.

Results

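A set of 10 genes that mark newly formed oligodendrocytes was followed across 4 groups of mice. It held Enpp6, Bcas1, Gpr17, Itpr2, Fyn, Neu4, Tmem2 (also called Cemip2), Mpzl1, Tmem163 and Frmd4a. The 10 genes were chosen by name as known markers of this stage, with earlier results of these data known. They were read from an expression table of 33864 assembled loci. Each was taken from the locus that carried its symbol, and Fyn, which stood at 2 loci, from the one with the higher mean. RNA sequencing had been done on polyadenylated RNA of subcortical white matter from 12 mice, 3 per group, each with 1 library. In the dnEGFR line, mutants of genotype Sox10-tTA;TRE-dnEGFR were compared with TRE-dnEGFR littermates, all given doxycycline from postnatal day 21 to 35 and aged 35 days. In the ErbB2V664E line, mutants of genotype Sox10-tTA;TRE-ErbB2V664E were compared with TRE-ErbB2V664E littermates, all given doxycycline from postnatal day 21 to 30 and aged 30 days. dnEGFR is a dominant-negative epidermal growth factor receptor, and ErbB2V664E an activated form of the receptor ErbB2. According to the series title, the question was how white matter responds when ErbB receptors are inhibited or activated in oligodendroglia. The controls carry the responder transgene only, so the transactivator and the responder it drives cannot be told apart. The labels do not say if the drug turns expression of the responders on or stops it. Sox10 is active throughout the oligodendrocyte lineage, so the driver is not limited to newly formed cells.

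Oligodendrocytes arise from dividing precursors that pass through a short premyelinating stage before they wrap axons. Cells at this stage switch on a set of genes that fall again as compact myelin is made, and their presence is used as a sign that new oligodendrocytes are being added. In the white matter of the young mouse precursors, newly formed cells and mature myelinating cells lie side by side. A bulk measurement cannot tell fewer cells of a stage from less RNA per cell.

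The members play different parts in these cells. Enpp6 is a choline-specific phosphodiesterase of the cell surface, and Bcas1 is a protein of cells that are starting to myelinate. Gpr17 is a G protein-coupled receptor of committed precursors and early oligodendrocytes. Itpr2 is a calcium release channel of the endoplasmic reticulum, and Fyn is a Src-family kinase that acts downstream of contact between oligodendrocyte and axon. Neu4 is a sialidase, Tmem2 a hyaluronan-degrading enzyme of the cell surface, and Mpzl1 an adhesion protein related to myelin protein zero. Tmem163 is a zinc transporter and Frmd4a a scaffold protein of the FERM family.

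Upstream sequences were looked up for the members in RefSeq's promoter table (build GRCm38.p6), which held 7 of the 10 genes in 10 windows. Shown are the 250 bases before the start of Enpp6, the marker with the clearest difference between groups, of Mpzl1, which was lower in the same group, and of Neu4, which was not. They run 5′ to 3′ on the strand of the gene. The motifs searched were the SOX-type words ACAAAG and ACAATG, the TCF/LEF core CTTTGA and the E-box CAGCTG. Both strands were read, and matches are in capitals.
Enpp6 (chr8:46986637-46986886, plus strand): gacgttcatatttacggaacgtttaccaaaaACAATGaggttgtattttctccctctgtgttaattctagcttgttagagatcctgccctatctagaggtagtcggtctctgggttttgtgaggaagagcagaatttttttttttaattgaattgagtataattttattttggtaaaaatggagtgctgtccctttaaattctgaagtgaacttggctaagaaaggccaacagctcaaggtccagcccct
Mpzl1 (chr1:165634542-165634791, minus strand): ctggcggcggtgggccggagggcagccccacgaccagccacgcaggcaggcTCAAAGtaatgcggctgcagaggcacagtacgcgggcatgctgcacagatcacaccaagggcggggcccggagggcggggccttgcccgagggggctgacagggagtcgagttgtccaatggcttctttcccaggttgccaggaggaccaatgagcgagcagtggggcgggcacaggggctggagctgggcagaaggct
Neu4 (chr1:94020243-94020492, plus strand): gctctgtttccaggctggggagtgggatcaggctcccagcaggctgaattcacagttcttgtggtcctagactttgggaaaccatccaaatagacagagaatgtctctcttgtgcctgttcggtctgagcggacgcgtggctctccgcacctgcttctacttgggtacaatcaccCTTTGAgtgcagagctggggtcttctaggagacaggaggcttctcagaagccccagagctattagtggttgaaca
The Enpp6 window held 1 ACAATG, and Mpzl1 and Neu4 each held 1 CTTTGA, on opposite strands. Fyn held 1 CTTTGA as well, and 1 of the 4 Frmd4a windows held ACAAAG, while the windows of Itpr2 and Tmem163 held no match. Over all 32851 windows of the same length, 16.5% held ACAAAG, 10.7% ACAATG, 13.8% CTTTGA and 13.001% CAGCTG. In base composition the Enpp6 window, with 38.4% G and C and 4 CpG, lay below the median window (52.4% and 6 CpG), whereas Mpzl1 (68.4%, 15 CpG), Fyn (67.2%, 21 CpG) and Itpr2 (74.4%, 22 CpG) lay above it. These are descriptions of letters and were not tested against expression.

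The values are FPKM, fragment counts scaled to transcript length and to library size, so levels can be compared between genes. This comparison is loose, since some loci varied widely between libraries of the same group. Ermn, a mature oligodendrocyte gene, was at 2.75, 2.36 and 40.4 FPKM in dnEGFR controls. No counts were used, but steps between the lowest values place 1 FPKM of a 2 kb transcript at 33.2 to 49.6 fragments, depending on the library. In the dnEGFR line the library totals were 117363 to 125911 FPKM and in the ErbB2V664E line 127253 to 134410. A single locus, Gm28661, took 5589 to 6563 FPKM in every ErbB2V664E library and at most 0.000146 in the dnEGFR line. Olig1, a transcription factor of the whole lineage, was listed at 0 in 8 of 12 libraries and at 35.4 to 59.0 FPKM in the others, so a 0 in this table is not read as absence. Mag, a defining gene of myelinating oligodendrocytes, was at 34.0 to 115 FPKM in all libraries. Sox10, the gene of the driver, was at 22.3 to 29.8 FPKM in ErbB2V664E controls and 14.8 to 16.4 in mutants. Its groups thus did not overlap, as at 8.96% of loci with mutants lower. In the dnEGFR line Sox10 was at 5.24 to 12.7 FPKM in controls and 4.62 to 11.1 in mutants. Its part in the marker values was not tested.

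By median level over the 12 libraries Bcas1 came first with 31.6 FPKM, followed by Fyn with 18.8. Mpzl1 (7.52) and Enpp6 (5.14) formed a middle tier. Neu4 (2.77), Frmd4a (2.42), Tmem163 (1.99), Itpr2 (1.96) and Tmem2 (1.93) were lower, and Gpr17 (0.686) was the lowest. The mean of Gpr17, 3.502 FPKM, would place it above Neu4, but it rests on dnEGFR mutants 1 and 2, at 17.2 and 15.1 FPKM. All 10 passed the filter for testing, which asked for 1 FPKM in at least 3 libraries. Gpr17 reached 1 FPKM in 4 libraries, Tmem163 in 11 and the other 8 in all 12.

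**Figure D1:**
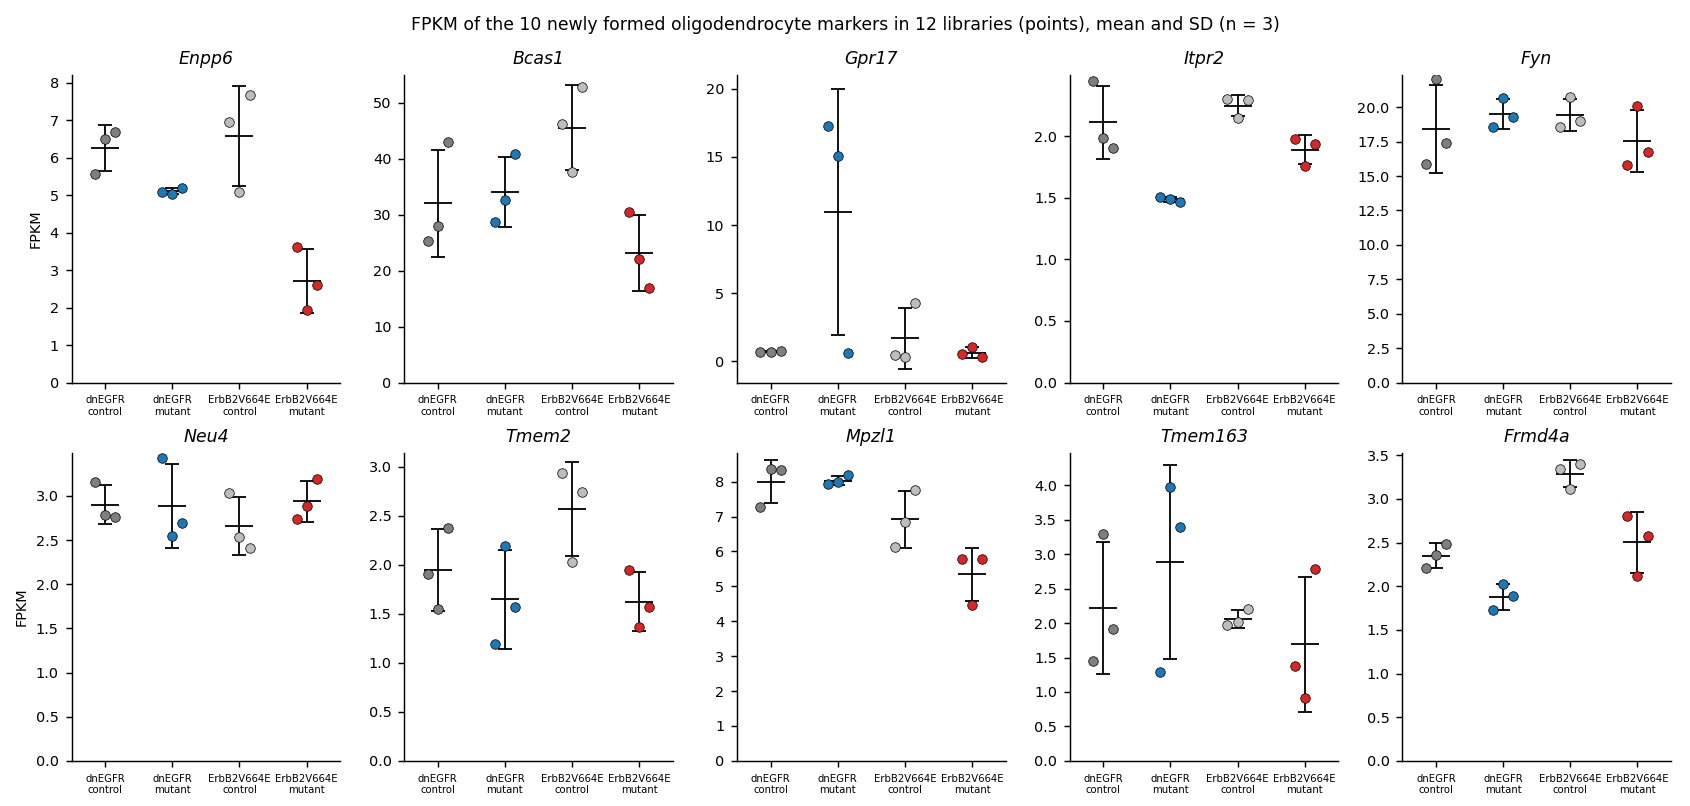
FPKM (y axis, one scale per gene) of the 10 markers in the 12 libraries, grouped by line and genotype (x axis). Points are mice, long bars group means and error bars the SD of 3 mice. The 3 ErbB2V664E mutants lie at 1.93 to 3.61 FPKM for Enpp6, below the other 9 mice, and Gpr17 is at 15.1 and 17.2 FPKM in 2 dnEGFR mutants only.

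The ErbB2V664E comparison gave the clearest pattern, with most markers lower in the mutants. Enpp6 fell, and it was the only member past the threshold (limma on log2(FPKM + 1), Benjamini-Hochberg adjusted p under 0.05 over all 13803 loci tested). Bcas1, Itpr2, Tmem2, Mpzl1 and Frmd4a were lower in each of the 3 mutants than in any of the 3 controls, without passing that threshold. Called loci were 38 of 13803 (0.275%), 0.138% in the lower direction. An unadjusted limma p under 0.05 was found at 1675 loci, among them Enpp6, Bcas1, Tmem2, Mpzl1 and Frmd4a, all lower. Groups that did not overlap, with mutants lower, were found at 8.96% of loci and at 6 of the 10 members. The log2 change was negative for 9 of 10 members with a median of -0.31, against 49.0% of all loci and a median of 0.00.

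Enpp6 was at 6.96, 5.09 and 7.68 FPKM in the 3 ErbB2V664E controls and at 3.61, 1.93 and 2.60 in the 3 mutants. The highest mutant thus stood under the lowest control. The mean was 6.58 ± 1.34 FPKM in controls and 2.71 ± 0.845 in mutants (SD, n = 3 each). The log2 change was -1.04 (SE 0.17, limma, adjusted p = 0.0464). In the 3 litters, mutant minus littermate control was -0.79, -1.06 and -1.27 on the log2 scale. The call sits close to the threshold. With litter as a block its adjusted p was 0.0785, and it passed in none of the 6 alternatives, block included, that could change it without leaving out a library (adjusted p from 0.0517 to 0.599). It passed in 2 of the 12 fits that each left out a library, without ErbB2V664E control 2 (adjusted p = 0.0339) and without ErbB2V664E mutant 1 (0.00894), and was between 0.0691 and 0.152 in the others. The log2 change stayed between -1.30 and -0.72 over all of these.

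ErbB2V664E controls had 46.2, 37.7 and 52.9 FPKM of Bcas1, and mutants had 30.5, 22.1 and 17.0. All mutants stood below all controls. In FPKM the mutants spread almost as widely as the controls (SD 6.84 and 7.64), but around a lower mean (23.2 against 45.6). Its log2 change was -0.97 (SE 0.25, 95% interval -1.53 to -0.41), with an adjusted p of 0.158. Mutant minus littermate control was -0.58, -0.74 and -1.59 in the 3 litters. On this scale the estimate for Bcas1 was close to that for Enpp6 while its SE was larger. An antisense transcript locus, Bcas1os1, shares 440 of the 3775 annotated exon bases of Bcas1, and library preparation as described does not mark strand.

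The other members that separated the groups did so with smaller differences. Mpzl1 was at 6.14, 6.85 and 7.76 FPKM in controls and at 5.78, 4.46 and 5.78 in mutants, a log2 change of -0.32 (SE 0.11, adjusted p = 0.267). In this gene the gap between the lowest control and the highest mutant was small, and the litter differences ran from -0.52 to -0.07. Frmd4a was at 3.34, 3.11 and 3.41 FPKM in controls and at 2.81, 2.12 and 2.58 in mutants (-0.30, SE 0.09, adjusted p = 0.212). Tmem2 was at 2.94, 2.03 and 2.74 FPKM in controls and at 1.95, 1.36 and 1.57 in mutants (-0.44, SE 0.17, adjusted p = 0.327). In both genes the groups stood apart, and the controls of Tmem2 were spread more widely than those of Frmd4a. Itpr2 was at 2.30, 2.15 and 2.29 FPKM in controls and at 1.98, 1.75 and 1.93 in mutants, a tight pair of groups with a log2 change of -0.17 (SE 0.08, adjusted p = 0.459).

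Fyn, Neu4, Tmem163 and Gpr17 overlapped between ErbB2V664E mutants and controls. Fyn, the kinase, was at 18.6 to 20.8 FPKM in controls and 15.8 to 20.1 in mutants, and the 95% interval of its log2 change ran from -0.44 to 0.14. Neu4 was the member with a positive change, at 2.41 to 3.03 FPKM in controls and 2.73 to 3.19 in mutants, with an interval from -0.13 to 0.35. For RNA of the whole tissue, these 2 intervals exclude a fall as large as that estimated for Enpp6. The cell types that carried this RNA could not be told apart. Tmem163 was at 1.97 to 2.20 FPKM in controls and at 1.37, 0.911 and 2.79 in mutants, so that mutant 3 exceeded every control and the interval was wide (-0.98 to 0.49). Adjusted p for these 4 genes was between 0.704 and 0.88.

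**Figure D2:**
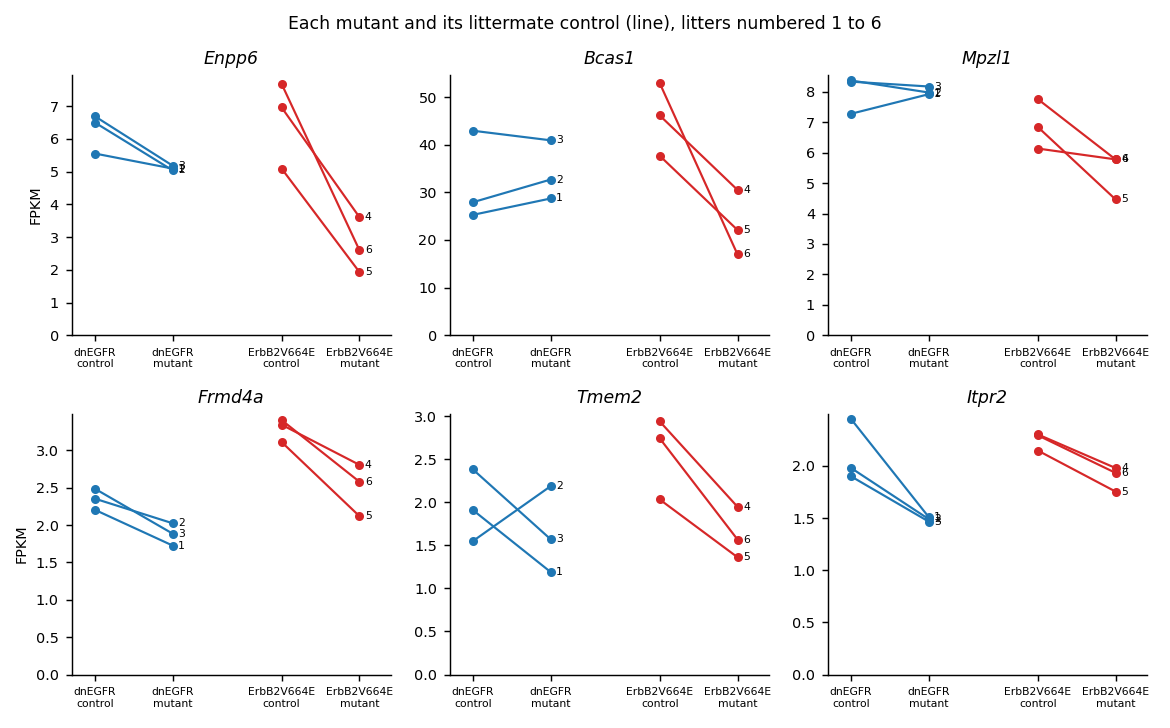
FPKM (y axis) of the 6 markers whose ErbB2V664E groups did not overlap, in each mutant and its littermate control, joined by a line, with the dnEGFR line in blue and the ErbB2V664E line in red (x axis, line and genotype; small numbers name the litters 1 to 6). Since those groups do not overlap all red lines slope downward, with log2 differences from -0.07 to -1.59, and the blue lines of Enpp6, Itpr2 and Frmd4a do so as well.

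Markers of blood and of microglia were also lower in some ErbB2V664E mutants. Red blood cell genes (5 loci, haemoglobins and Alas2) summed to 95.5 to 214 FPKM in controls and 22.1 to 118 in mutants (median log2 change -1.57, 5 of 5 negative). Microglial genes summed to 103 to 135 FPKM in controls and 63.0 to 106 in mutants (median -0.55, 8 of 9 negative). Astrocyte genes summed to 239 to 417 FPKM in controls and 199 to 230 in mutants (median -0.39, 5 of 6 tested negative). Neuronal genes summed to 757 to 848 FPKM in controls and 824 to 943 in mutants (median 0.21, 6 of 8 positive). Mutant 1, the one with the highest Enpp6 and Bcas1, had a mean log2(FPKM + 1) of the red blood cell genes of 4.08, inside the control range of 3.84 to 4.91, and mutants 2 and 3 were at 2.57 and 2.19. No gene of these lists was at 0 in all libraries of a group. With this red blood cell mean as a covariate, the log2 change was -0.72 for Enpp6 (adjusted p = 0.599) and -0.43 for Bcas1 (0.935), all 10 members were negative, and the number of called loci was 5. As this mean lay below the control range in mutants 2 and 3, the fit cannot tell it apart from genotype. What part blood, microglia or a different share of other cells has in the lower marker values was not tested.

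In the dnEGFR comparison 0 of the 10 members passed the threshold, where 13 of 13803 loci did (0.0942%). An unadjusted limma p under 0.05 was found at 786 loci. Among them were 3 members, Itpr2 (0.00353) and Frmd4a (0.0351), which were lower, and Gpr17 (0.0248), which was higher. Enpp6, Itpr2 and Frmd4a were lower in all 3 mutants than in all 3 controls, which was so at 4.57% of loci. Enpp6 was at 5.55, 6.50 and 6.69 FPKM in controls and at 5.09, 5.04 and 5.18 in mutants. The mutants were nearly identical to each other, and the log2 change was -0.24 with a 95% interval from -0.63 to 0.14 (adjusted p = 0.98). Itpr2 was at 2.45, 1.98 and 1.90 FPKM in controls and at 1.51, 1.49 and 1.47 in mutants, a log2 change of -0.32 (SE 0.08, adjusted p = 0.507). Frmd4a was at 2.21, 2.35 and 2.49 FPKM in controls and at 1.73, 2.02 and 1.89 in mutants (-0.22, SE 0.09, adjusted p = 0.835). These 3 genes were thus the members whose mutants lay under the controls in both lines, a pattern met at 0.638% of all loci tested.

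The remaining members overlapped between dnEGFR mutants and controls. Bcas1 was at 25.3, 27.9 and 42.9 FPKM in controls and 28.7, 32.7 and 40.9 in mutants, with a 95% interval of the log2 change from -0.45 to 0.67. Mpzl1 (7.28 to 8.37 in controls, 7.92 to 8.18 in mutants) and Neu4 (2.76 to 3.15 and 2.54 to 3.43) had log2 changes of 0.01 and -0.01, with intervals from -0.24 to 0.26 and from -0.25 to 0.23. Fyn was at 15.9 to 22.0 FPKM in controls and 18.6 to 20.7 in mutants. Tmem2 (1.55 to 2.38 in controls, 1.19 to 2.19 in mutants) and Tmem163 (1.45 to 3.30 and 1.29 to 3.97) varied widely within both groups. Striatal neuron genes, markers of the neighbouring grey matter, summed to 106 to 178 FPKM in dnEGFR controls and 134 to 368 in mutants (7 of 7 positive, median 0.57), and red blood cell genes to 126 to 155 and 116 to 279. Their part in the marker values was not tested. Over the members the median log2 change was 0.00, with 5 negative, against 48.6% of all loci.

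**Figure D3:**
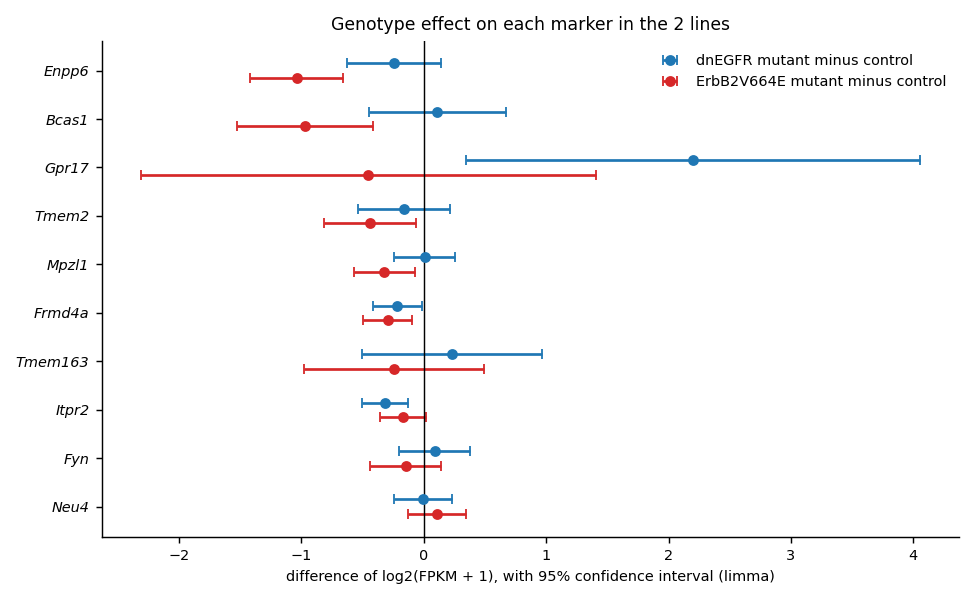
Difference of log2(FPKM + 1) between mutants and controls (x axis) for each marker (y axis), with 95% confidence intervals from limma, dnEGFR in blue and ErbB2V664E in red. Enpp6 and Bcas1 lie at -1.04 and -0.97 in red with blue points at -0.24 and 0.11, while Gpr17 has the widest intervals.

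Gpr17 stood apart from the rest in how it was distributed over mice. In the dnEGFR line it was at 0.683, 0.690 and 0.727 FPKM in controls and at 17.2, 15.1 and 0.622 in mutants, so mutant 3 lay below every control. The log2 change was 2.20 (SE 0.83, adjusted p = 0.812), and without dnEGFR mutant 3 it was 3.33 with an adjusted p of 0.0387, the only one of 12 fits without 1 library in which it passed, and none of the other alternatives did. In the ErbB2V664E line it was at 0.501, 0.323 and 4.26 FPKM in controls and at 0.511, 1.09 and 0.292 in mutants (log2 change -0.45, 95% interval -2.31 to 1.41), and without control 3 the change was 0.18. The Gpr17 locus comprised 2 transcripts, 1 assembled and 1 from Ensembl. Its values in the 2 high dnEGFR mutants were the only ones deposited with more than 6 decimals. In the table, at most 6 decimals were found for 95.5% of nonzero values of loci with 1 transcript and for 1.54% of those with more, and the other 9 members had more than 6 in all 12 libraries. Whether the high values reflect another assignment of fragments to the 2 transcripts was not tested.

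Gpr17 overlaps Lims2 on the opposite strand in GENCODE M21, and 188 of its 5195 exon bases are shared with that gene. Lims2, an adaptor protein of integrin contacts, was at 3.25 and 2.81 FPKM in the 2 dnEGFR mutants with high Gpr17 and at 3.31 to 4.47 in the other 4 mice of that line. It was at 7.40 FPKM in ErbB2V664E control 3, the highest of all libraries, where Gpr17 was 4.26. In the dnEGFR line Lims2 was thus not higher where Gpr17 was. Shared exon bases with a gene on the opposite strand were also found for Tmem163 (152 of 4292, with Mgat5), Tmem2 (97 of 8520) and Frmd4a, and for Enpp6, Itpr2, Fyn, Neu4 and Mpzl1 there were none.

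**Figure D4:**
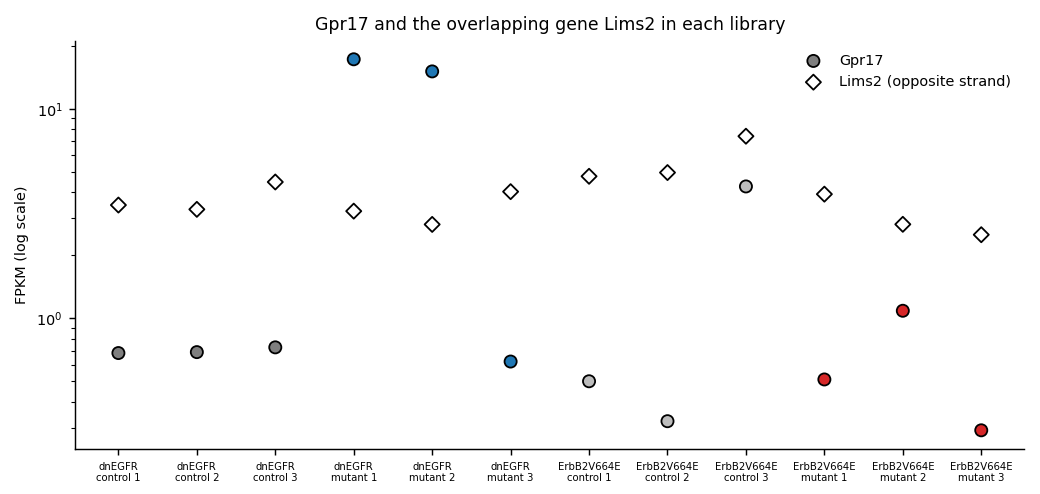
FPKM on a log scale (y axis) of Gpr17 (filled circles, coloured by group) and of the overlapping gene Lims2 (open diamonds) in each of the 12 libraries (x axis). Gpr17 reaches 17.2 and 15.1 in dnEGFR mutants 1 and 2 and lies between 0.292 and 4.26 elsewhere, while Lims2 stays between 2.51 and 7.40.

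The difference between the 2 genotype effects was tested as ErbB2V664E effect minus dnEGFR effect. No member passed, where 16 of 13803 loci did (0.116%) and 1244 had an unadjusted p under 0.05, among them Enpp6, Bcas1 and Gpr17. The differences were -0.79 for Enpp6 (SE 0.24, adjusted p = 0.399), -1.08 for Bcas1 (SE 0.35, adjusted p = 0.431) and -2.65 for Gpr17 (SE 1.18, adjusted p = 0.553). Those of the other 7 lay between -0.48 and 0.15. The lower Enpp6 in ErbB2V664E mutants was therefore not shown to differ from its change in dnEGFR mutants.

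Across all 4 groups the order of the levels differed from gene to gene. Line, age, length of doxycycline treatment and library totals differ together between the 2 lines, so orders across lines are descriptions only. For Enpp6 the ErbB2V664E controls (6.58 FPKM) and dnEGFR controls (6.25) overlapped, the dnEGFR mutants (5.10) overlapped only with the lowest ErbB2V664E control, and the ErbB2V664E mutants (2.71) stood below all. For Bcas1 the ErbB2V664E controls (45.6 FPKM) came first, and the dnEGFR mutants (34.1) and dnEGFR controls (32.1) overlapped with them and with each other. For Frmd4a the ErbB2V664E controls (3.29) stood above every other mouse, the ErbB2V664E mutants (2.503) overlapped with the dnEGFR controls (2.35), and the dnEGFR mutants (1.88) were lowest. Itpr2 put the dnEGFR mutants (1.49) lowest of all, below the ErbB2V664E mutants (1.89).

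Controls of the 2 lines were also compared, although line, age, length of doxycycline treatment and library characteristics differ together there and cannot be told apart. Of the members, Frmd4a was higher in the ErbB2V664E controls (2.35 ± 0.141 against 3.29 ± 0.155 FPKM, SD, n = 3 each; log2 difference 0.36, SE 0.09, adjusted p = 0.0202), where 20% of loci were called, 1502 higher (10.9%) and 1259 lower. Its groups did not overlap, as at 21.6% of loci with higher values. When libraries were rescaled to the same sum of FPKM the calls were 1073 higher and 1885 lower, the median of all loci moved by -0.11, and Frmd4a was at an adjusted p of 0.0616. Its call was lost as well without dnEGFR control 1 or 2, or ErbB2V664E control 1 or 3. The adjusted p of the other 9 members lay between 0.175 and 0.958.

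Other genes of the lineage were read for comparison. Of 16 further genes of newly formed oligodendrocytes, 15 had a locus and 12 were tested, and 0 were called in either genotype comparison. In ErbB2V664E mutants 10 of the 12 had negative changes with a median of -0.41, such as Nfasc, which makes neurofascin of nodes and paranodes (22.4 ± 1.598 to 16.01 ± 2.11 FPKM; -0.46, adjusted p = 0.123), and Kif19a, a kinesin (2.52 ± 0.346 to 1.58 ± 0.239, -0.45, adjusted p = 0.143). In dnEGFR mutants 9 of 12 were negative with a median of -0.13, the smallest p belonging to Rras2 and Cnksr3 (log2 changes -0.25 and 0.29). Between controls 5 of the 12 were called, where 20% of all loci were, 10.9% in the higher direction. Nfasc (0.68), Cnksr3 (0.58), the morphogen Bmp4 (0.53) and the deacetylase Sirt2 (0.48) were higher in the ErbB2V664E line and Rras2 (-0.60) was lower. Of these, Nfasc and Rras2 passed in all 12 fits without 1 library and all 5 other alternatives, Cnksr3 in 5 and 2, and Bmp4 and Sirt2 in 8 and 3 each.

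Precursor genes had 0 called of 13 tested in both lines, with medians of -0.18 (ErbB2V664E) and -0.03 (dnEGFR). In dnEGFR mutants the smallest p belonged to Matn4 (-0.29, adjusted p = 0.755) and Olig2 (1.05, adjusted p = 0.956). Olig2 varied widely, from 0.464 to 10.1 FPKM over the 12 libraries. In the ErbB2V664E line Olig1 was listed at 0 in all controls and stood at 48.0 to 59.0 FPKM in mutants (adjusted p = 0.0748). It was also listed at 0 in all dnEGFR mutants and in dnEGFR controls 2 and 3, with 35.4 FPKM in control 1. These values of 0 are not read as absence, so the difference is not read as a rise of Olig1. Pdgfra, the growth factor receptor that defines precursors, was at 8.01 ± 0.382 FPKM in ErbB2V664E controls and 5.89 ± 1.1997 in mutants (-0.40, adjusted p = 0.219). Of 17 mature oligodendrocyte genes, 3 fell in ErbB2V664E mutants, where 0.138% of all loci did, with a median of -0.87 over the list: the protease Klk6 (-2.09, adjusted p = 0.000587), the actin-severing protein Gsn (-1.30, 0.0159) and the myelin-associated glycoprotein Mag (-1.22, 0.0449). In dnEGFR mutants 1 of 17 fell, against 0.0362% of all loci, Klk6 (-1.196, adjusted p = 0.0293), with a median of -0.17. Leaving out 1 library kept the ErbB2V664E call of Klk6 in 12 of 12 fits, of Gsn in 9 and of Mag in 1, and the dnEGFR call of Klk6 in 4. With litter as a block the adjusted p was 0.0146 for Klk6, 0.0674 for Gsn and 0.109 for Mag in the ErbB2V664E comparison, and 0.115 for Klk6 in the dnEGFR comparison. Of 6 alternatives that kept all libraries, block included, the ErbB2V664E call passed in 6 for Klk6, in 3 for Gsn and in 2 for Mag, and the dnEGFR call of Klk6 in 2. With the red blood cell covariate the ErbB2V664E change was -1.78 for Klk6 (adjusted p = 0.0239), -1.01 for Gsn (0.445) and -0.88 for Mag (0.599). No member of the astrocyte, microglial, endothelial, neuronal, striatal neuron, neuroblast, red blood cell and Schwann cell lists was called in either genotype comparison. Their median log2 changes in ErbB2V664E mutants were -0.39, -0.55, 0.10, 0.21, -0.17, -0.25 and -1.57 for the first 7, and the Schwann cell list had 1 tested gene (-0.77).

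**Figure D5:**
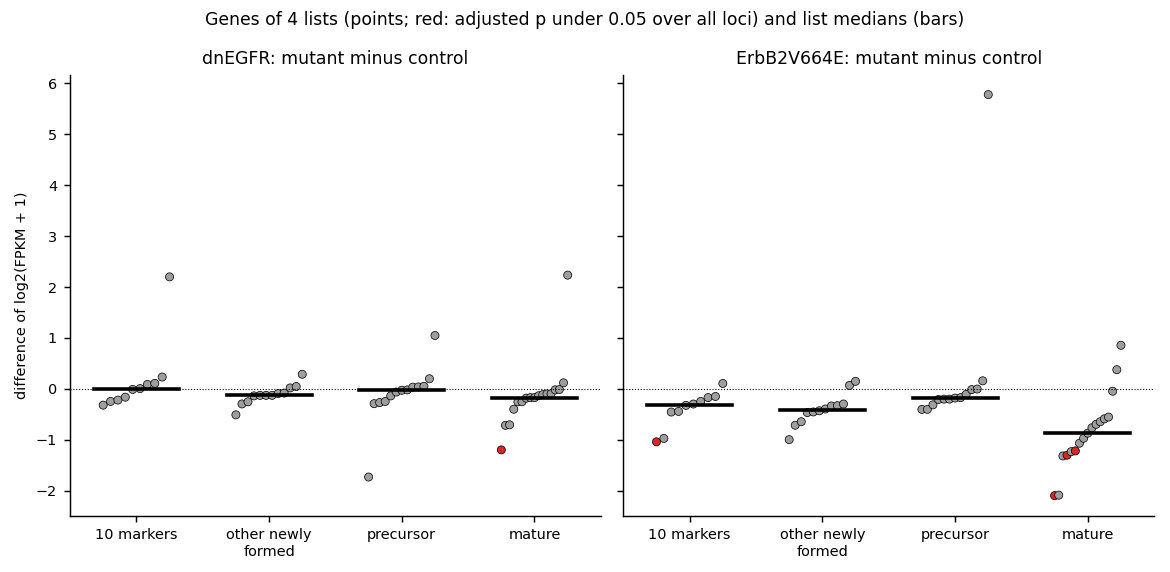
Difference of log2(FPKM + 1) between mutants and controls (y axis) for the tested genes of 4 lists (x axis) in the dnEGFR (left) and ErbB2V664E (right) comparison. Points are genes, red where the adjusted p over all loci is under 0.05, and bars are list medians, which run from -0.17 to 0.00 on the left and from -0.87 to -0.18 on the right.

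The loci whose profile over the 12 libraries was most like that of Enpp6 were named by the smallest mean absolute difference of centred log2(FPKM + 1) among 13201 loci with a symbol. They were Mag (0.12), the centriolar protein gene Ccp110 (0.13), the sterol isomerase gene Ebp (0.13), the hedgehog-interacting protein gene Hhip (0.14) and a joined locus holding Trf, which encodes transferrin (0.14). Mag was at 79.5, 70.4, 103 and 44.5 FPKM in dnEGFR controls, dnEGFR mutants, ErbB2V664E controls and ErbB2V664E mutants. As Mag was picked for its likeness to Enpp6, their shared order of groups is no separate result. For Bcas1 the nearest were the netrin receptor gene Unc5b (0.16), a joined locus with the semaphorin Sema4d (0.17), the pteridine reductase gene Qdpr (0.17), Mob3b (0.17) and Gatm, an enzyme of creatine synthesis (0.18). Gpr17 had no near neighbour, its closest loci being Gria4 (0.57), Fem1a (0.58), Gm10036 (0.64), Gm9755 (0.64) and Gm37784 (0.65). Gria4, Fem1a and Gm10036 were listed at 0 in all 6 ErbB2V664E line libraries.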

How the data were processed

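RNA was measured in subcortical white matter of 12 mice, 4 groups of 3. Per the labels' protocols, polyadenylated RNA was fragmented, reverse transcribed with random hexamers and sequenced in paired ends. The deposited values are FPKM that the authors computed with StringTie, as the design text says; HISAT is also named, per the submitters' processing notes. Versions, options and genome build: not given in the sources used here. From these values log2(FPKM + 1) was tested with limma 3.58.1 in R 4.3.3 (two-sided, group means fitted to the 12 libraries, moderated variances with a trend on mean level, 8 residual and 2.03 prior degrees of freedom). Loci with at least 1 FPKM in at least 3 libraries, 13803 in all, were tested. Benjamini-Hochberg adjustment ran over all of them, with a threshold of 0.05. A fold on this scale understates changes of low genes. The depth, 16597300 to 24824800 fragments per library, was estimated from the steps of low values in loci with 1 transcript (tolerance 0.01 of a fragment). The members, gene lists and tests were chosen with earlier results of these data known. Named genes were the 10 members, the 5 loci most like Enpp6, Bcas1 and Gpr17, called genes of the lists, and otherwise the 2 of smallest p. The 8 lists of other cells were given as counts, medians or sums. The labels name each mutant's littermate control, so litters pair the libraries. Correlations of deviations from the group means within the 6 litters were 0.016, 0.0089, 0.033, -0.0036, 0.0099 and -0.025. Alternatives were another pseudocount (0.1), no filter, rescaled libraries, fewer groups in the fit, summed loci, the litter block, a red blood cell covariate and leaving out each library. The model was tested on simulated data. Tables were made with pandas 2.3.3 and numpy 2.4.6 under Python 3.11.15, and plots with matplotlib 3.10.9.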

Additional observations from a re-analysis of the deposited data

How the results depend on the processing

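The count of members called in the ErbB2V664E comparison, 1 as reported, was 0 with a pseudocount of 0.1, without the filter, after rescaling, with only the compared groups in the fit, with the replicate block and with the red blood cell covariate, and 0 to 1 when 1 library was left out. In the control comparison it was 0 after rescaling, and leaving out 1 library gave 0 to 1 there and in the dnEGFR comparison and 0 for the difference of the effects. Loci called in the dnEGFR comparison numbered 22 with only its groups in the fit and 3 with the replicate block, against 13. In the ErbB2V664E comparison they numbered 23, 7 with the block and 5 with the covariate, against 38, and for the difference 4 with the block and 3 with the covariate, against 16. Leaving out 1 library gave 9 to 36, 16 to 262 (the highest without ErbB2V664E mutant 1), 15 to 42 and, for the control comparison, 1810 to 2787 loci. The block changed no other call of a member and was not fitted between controls, which share no litters. With the covariate the sign changed in the dnEGFR comparison for Bcas1 (-0.051), Neu4 (0.039) and Mpzl1 (-0.0187), in the ErbB2V664E comparison for Neu4 (-0.055), and in the difference for Neu4 (-0.094), Tmem2 (0.15) and Frmd4a (0.094). After rescaling it changed for Mpzl1 in the dnEGFR comparison (-0.0188) and for Enpp6 (-0.062), Itpr2 (-0.021) and Fyn (-0.030) between controls. Leaving out 1 library changed the sign of 10 values, none of them called: in the dnEGFR comparison Bcas1 (-0.037 to 0.33), Fyn (-0.0070 to 0.22), Neu4 (-0.11 to 0.055) and Mpzl1 (-0.052 to 0.038), Gpr17 in the ErbB2V664E comparison (-0.82 to 0.18), Frmd4a in the difference (-0.14 to 0.0035), and between controls Enpp6 (-0.054 to 0.20), Gpr17 (-0.27 to 0.73), Fyn (-0.00996 to 0.22) and Tmem163 (-0.21 to 0.19). The cause of these changes was not tested.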
